A study of Rattus norvegicus with 18 samples.

Results

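The miR-99/100 and miR-125 families were followed through the small RNA of rat dorsal root ganglia, by taking every listed miRNA named miR-99a, miR-99b, miR-100, miR-125a or miR-125b, with any copy or arm suffix. Of the 753 miRNAs listed, 11 carried such a name, 6 of the miR-99/100 family and 5 of the miR-125 family, and all 11 had enough counts to be tested. The rule reads names and no measured value, but the families themselves were picked with earlier results of these data known. They were rno-miR-99a-5p, rno-miR-99a-3p, rno-miR-99b-5p, rno-miR-99b-3p, rno-miR-100-5p, rno-miR-100-3p, rno-miR-125a-5p, rno-miR-125a-3p, rno-miR-125b-5p, rno-miR-125b-1-3p and rno-miR-125b-2-3p.

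The ganglia came from segments C6 to C8 of Lister Hooded rats, pooled from 1 side within each rat, with 1 library per rat and 6 rats per group. Naive rats had neither surgery nor vector. Rats of the bPYX+GFP group had both corticospinal tracts cut in the medullary pyramids (bilateral pyramidotomy) and an adeno-associated virus, AAV1, encoding green fluorescent protein injected into the forelimb flexor muscles of 1 side. Rats of the bPYX+NT3 group had the same injury and an AAV1 encoding human prepro-neurotrophin-3, a growth factor for proprioceptive sensory neurons. Ganglia of the operated rats were taken 10 weeks after surgery. The vector drove its transgene from the CMV promoter, which is not specific to a cell type, and it was injected into muscle and not into the ganglia. Every vector-treated rat was also injured, so the injury and the GFP vector cannot be told apart in the comparison with naive rats. Because whole ganglia were sequenced, fewer cells of a type and less RNA per cell cannot be told apart either.

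miRNAs are cut from hairpin precursors, and each hairpin can release a 5p and a 3p strand. In these families the 5p strand is the usual guide, which is loaded into an Argonaute protein and recognises target mRNAs mainly through its seed, bases 2 to 8, while the 3p strand is mostly discarded. The miR-99/100 family is known for targeting mTOR pathway transcripts, and miR-125 is the vertebrate relative of the worm timing regulator lin-4. The families are linked by position. In the RefSeq annotation of assembly GRCr8, the hairpin genes lie in 3 groups with a let-7 gene between them: Mir99a, Mirlet7c1 and Mir125b2; Mir100, Mirlet7a-2 and Mir125b1; and Mir99b, Mirlet7e and Mir125a. The first group overlaps the gene LOC103693508, the second overlaps Mir100hgl and Lnc215, and the third overlaps Spaca6. The counts were made on assembly Rnor_5.0, so the annotation was used for gene names and order alone.

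RefSeq held a mature sequence for 10 of the 11 members. The guide miR-99a-5p had none there, so it was not compared by sequence. The guide strands are shown first because they define the families, with the seed in capitals and each sequence written 5′ to 3′.
miR-99b-5p: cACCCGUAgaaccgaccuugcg
miR-100-5p: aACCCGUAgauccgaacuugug
miR-125a-5p: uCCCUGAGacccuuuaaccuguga
miR-125b-5p: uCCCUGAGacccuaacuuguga
The strands miR-99b-5p and miR-100-5p have the same seed and match at 18 of 22 positions. Counted from 1 at the 5′ end, with the miR-99b-5p base first, they differ by C1A, A11U, C16A and C21U. The miR-125a-5p and miR-125b-5p strands share their first 13 bases, seed included, and match at 15 of 22 positions.

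The 3p strands below are shown because they separate hairpins whose guides are alike or identical.
miR-99a-3p: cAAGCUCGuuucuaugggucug
miR-99b-3p: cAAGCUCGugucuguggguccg
miR-125b-1-3p: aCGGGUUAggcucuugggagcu
miR-125b-2-3p: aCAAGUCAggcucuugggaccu
The 3p strands of miR-99a and miR-99b have the same seed and differ by U10G, A14G and U21C, with the miR-99a-3p base first. The miR-125b genes yield an identical 5p strand, whereas their 3p strands differ in the seed. With the miR-125b-1-3p base first, the differences are G3A, G4A, U7C and G20C.

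Each library held 3879788 to 6919863 miRNA counts, with a mean of 4699310 and an SD of 662696 (n = 18). bPYX+GFP replicate 3 was the deepest. The authors left the rat of naive replicate 1 out of their own small RNA analysis as an outlier. The deposited column header carries that rat's number, but the sample labels do not. The library was kept here in the main tests, and leaving it out was among the alternatives. The sensory neuron markers miR-182 and miR-96-5p were abundant, with at least 97298 and 16199 counts in every library, but miR-183-5p of the same list was listed at 0 in all 18, as was the glial marker miR-338-3p. Of the skeletal muscle markers, miR-1-3p and miR-133a-3p were listed at 0 and miR-206-3p had 184 to 1872 counts. All 4 markers named here as listed at 0 overlap a mature miRNA of another gene on the opposite strand, a class mostly at 0 in this table (described with miR-125b-5p), so their zeros do not show that the strands were absent. Of the 17 cell type markers tested, 3 had an unadjusted p under 0.05 between bPYX+GFP and naive, 1 between bPYX+NT3 and bPYX+GFP and 1 between bPYX+NT3 and naive. The shares of all tested miRNAs in these comparisons were 21.2%, 8.58% and 13.7%, so the markers were not called more often than other miRNAs. None had an adjusted p under 0.05 in any comparison by edgeR's quasi-likelihood test.

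The 2 families made up a large share of the miRNA counted in these ganglia. Together the 11 members took 28.1% ± 2.12 (SD, n = 18) of all miRNA counts, between 22.3% and 30.9% in single libraries. The share was 29.2% ± 1.64 for naive rats, 28.5% ± 1.15 for the GFP vector and 26.7% ± 2.68 for the neurotrophin-3 vector (SD, n = 6 each). The miR-99/100 family supplied 26.8% of all miRNA counts and the miR-125 family 1.30%. Of the counts pooled over all libraries, miR-125a-5p alone held 1.20%, and the level of miR-125b-5p is uncertain, as described below. On average 34.9% of a library's entries were counted for a miRNA (32.4% to 38.2%). All these shares are of those counts, without entries set aside for low alignment quality or as ambiguous. A single strand, miR-99a-5p, was the most counted miRNA of the table and held 20.7% ± 2.06 (SD, n = 18) of the counts.

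Levels are given as counts-per-million (CPM) of a library's miRNA counts, after scaling by TMM, a trimmed mean of the ratios between libraries. They were not divided by length. The members with a sequence are 22 to 24 bases long, except miR-100-3p with 19, and how evenly the library kit captured different sequences was not tested. The guide rno-miR-99a-5p was highest at 207732 ± 27583 CPM (SD, n = 18). It was followed by rno-miR-100-5p at 49171 ± 5029 CPM, and each was above the next member in all 18 libraries. rno-miR-99b-5p, at 12151 ± 1208 CPM, and rno-miR-125a-5p, at 11911 ± 1439 CPM, could not be ordered, because miR-99b-5p was the higher in only 11 of 18 libraries.

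**Figure D1:**
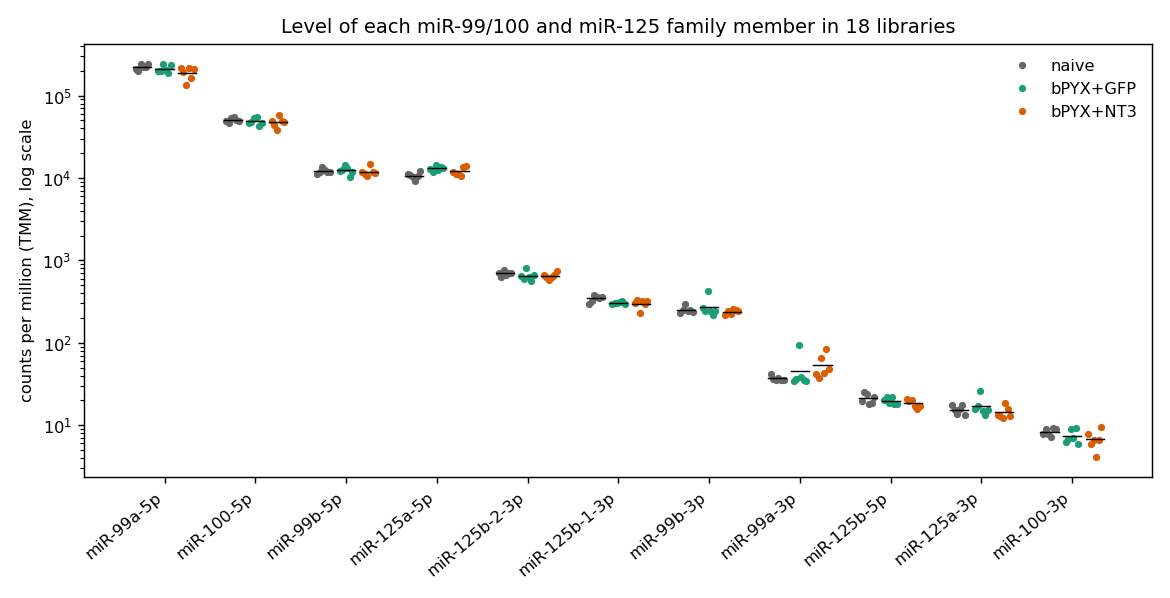
CPM of each member (y axis, log scale) in naive (grey), bPYX+GFP (green) and bPYX+NT3 (orange) libraries, with 1 point per library and a line at each group's mean. The 4 abundant guide strands lie at 9196 CPM or above in every library, and the remaining 7 members lie at 809 CPM or below.

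The 3p strands and miR-125b-5p lay far below these guides. rno-miR-125b-2-3p reached 665 ± 63.2 CPM and rno-miR-125b-1-3p 317 ± 34.1 CPM, and the former was higher in all 18 libraries. rno-miR-99b-3p followed at 254 ± 45.9 CPM, below miR-125b-1-3p in 17 of 18 libraries, and rno-miR-99a-3p at 45.3 ± 17.5 CPM. The 3 lowest members were rno-miR-125b-5p at 19.9 ± 2.52 CPM, rno-miR-125a-3p at 15.6 ± 3.28 CPM and rno-miR-100-3p at 7.48 ± 1.46 CPM (SD, n = 18). Of these, miR-125b-5p was above miR-125a-3p in 15 of 18 libraries. The lowest counts behind them were 67, 52 and 16, so counting error alone weighs on these levels more than on any other member.

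For 4 hairpins the 5p strand exceeded the 3p strand in every library. The ratio of 5p to 3p counts ran from 1946 to 6815 for miR-99a, from 4669 to 14442 for miR-100, from 543 to 1075 for miR-125a and from 33.9 to 57.3 for miR-99b. The miR-99b hairpin thus left the largest share of 3p strand of the 4, with no overlap between its range and that of any other.

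miR-125b ran the other way. Its 3p strands together had 37.5 to 60.9 times the counts of miR-125b-5p, with a median of 48.9 over 18 libraries, although the guide is usually the 5p strand. The miR-125b-5p sequence occurs in 2 genes, Mir125b1 and Mir125b2, and at Mir125b2 it is overlapped on the opposite strand by the annotated miRNA miR-3588, which had no counts. Reads that fit several places get a low alignment quality, and entries set aside for that reason made up 31.4% of each library on average (28.0% to 35.1%). A further 3.26% were set aside as ambiguous. Of the 94 listed miRNAs that overlap a mature miRNA of another gene on the opposite strand, 82 were at 0 in all libraries, as against 81 of 594 without such an overlap. miR-125b-5p was the only member among the 94. Of the 40 listed miRNAs with a sequence in 2 or more genes, 14 were at 0 in all libraries, as against 149 of 648 in 1 gene. The shares with enough counts to be tested were 45.0% and 51.2%. Whether counting used the strand of the reads is not given in the sources used here, and the part of copies and overlap in the low miR-125b-5p level was not tested. The level of miR-125b-5p is therefore uncertain, and the 3p strands alone tell the 2 genes apart.

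The 3p strand of the Mir125b1 gene had fewer counts than that of Mir125b2 throughout, at 0.377 to 0.562 times. The guides miR-99a-5p and miR-100-5p kept a ratio between 3.34 and 4.97. Within the third group of genes, the ratio of miR-99b-5p to miR-125a-5p ran from 0.759 to 1.40.

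Naive and bPYX+GFP rats were set against each other to ask what differed after corticospinal injury with a control vector. The guide miR-125a-5p was higher in injured rats and was the only member called after adjustment. Its level was 9196 CPM at the lowest, 10633 at the median and 12189 at the highest in naive rats, and 11751, 13060 and 14288 CPM in bPYX+GFP rats (n = 6 each). Of the 6 bPYX+GFP libraries, all lay above the naive mean and 5 lay above the highest naive library, so the groups overlapped by 1 library. The log2 fold change was 0.29 ± 0.07 (SE), a 1.22-fold rise, with an adjusted p of 0.0443 by edgeR's quasi-likelihood test with Benjamini-Hochberg adjustment over 373 miRNAs. It ranked ninth of the 9 miRNAs called at this threshold, which were 2.41% of those tested. The adjusted p ran from 0.0100 to 0.120 over 22 alternative settings and was under 0.05 in 9 of them. It passed the threshold when bPYX+GFP replicate 2, naive replicate 2 or naive replicate 6 was left out, and missed it without any other single library, with 0.0599 without naive replicate 1 and up to 0.120 without bPYX+GFP replicate 5. The unadjusted p of miR-125a-5p was at most 0.00478 and the log2 fold change stayed between 0.25 and 0.33 in all 22.

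Of the 17 tested cell type markers, 3 had an unadjusted p under 0.05 between the same groups, beside 21.2% of all tested miRNAs. None passed adjustment. By edgeR, the sensory neuron marker miR-182 had a log2 fold change of 0.20 (unadjusted p 0.0223, 6 of 6 bPYX+GFP libraries above the naive mean). The smooth muscle marker miR-145-5p had -0.50 (unadjusted p 0.0028) and the fibroblast marker miR-199a-5p -0.21 (unadjusted p 0.0416), each with 6 of 6 libraries below the naive mean. The other tested markers of these lists moved less. The log2 fold change was 0.07 for miR-96-5p and 0.0096 for miR-143-3p (unadjusted p 0.441 and 0.940 by edgeR). For the fibroblast markers miR-199a-3p and miR-214-3p it was -0.0084 and -0.04 (unadjusted p 0.952 and 0.731 by edgeR). The summed level of the 3 sensory neuron markers, of which miR-183-5p was at 0, ran from 23640 to 31007 CPM among naive rats and from 28964 to 33099 CPM with the GFP vector. For the 2 smooth muscle markers the sums ran from 41686 to 68813 CPM and from 44507 to 59397 CPM, and for the 3 fibroblast markers from 1627 to 2459 CPM and from 1387 to 1870 CPM. The part of these markers in the miR-125a-5p difference was not tested.

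The 3p strand of the Mir125b1 gene was lower after injury before adjustment, but it did not pass the adjusted threshold. miR-125b-1-3p stood at 293, 354 and 385 CPM (lowest, median, highest) in naive rats and at 297, 304 and 320 CPM in bPYX+GFP rats. All 6 bPYX+GFP libraries lay below the naive mean, within a range as narrow as a coefficient of variation of 2.86%. The log2 fold change was -0.17 ± 0.07 (SE), with an unadjusted p of 0.0309 and an adjusted p of 0.218 by edgeR. Its unadjusted p missed 0.05 without any 1 of bPYX+GFP replicates 1, 2, 3 or 6 or naive replicates 3, 4, 5 or 6, reaching 0.0755 without naive replicate 3.

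Among the 11 members, 1 was called with adjustment and 2 without, while 21.2% of all tested miRNAs had an unadjusted p under 0.05. No member had groups that did not overlap, which 4.02% of tested miRNAs had. The median log2 fold change of the members was -0.06, beside 0.0036 over all 373. The other 9 members had unadjusted p-values from 0.193 to 0.799 by edgeR. The dominant guide miR-99a-5p averaged 222692 ± 17845 CPM without and 211474 ± 21184 CPM with injury and the GFP vector (SD, n = 6 each), a log2 fold change of -0.07 ± 0.08 (SE). For miR-100-5p the log2 fold change was -0.06 ± 0.07 and for miR-99b-5p 0.02 ± 0.08 (SE).

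**Figure D2:**
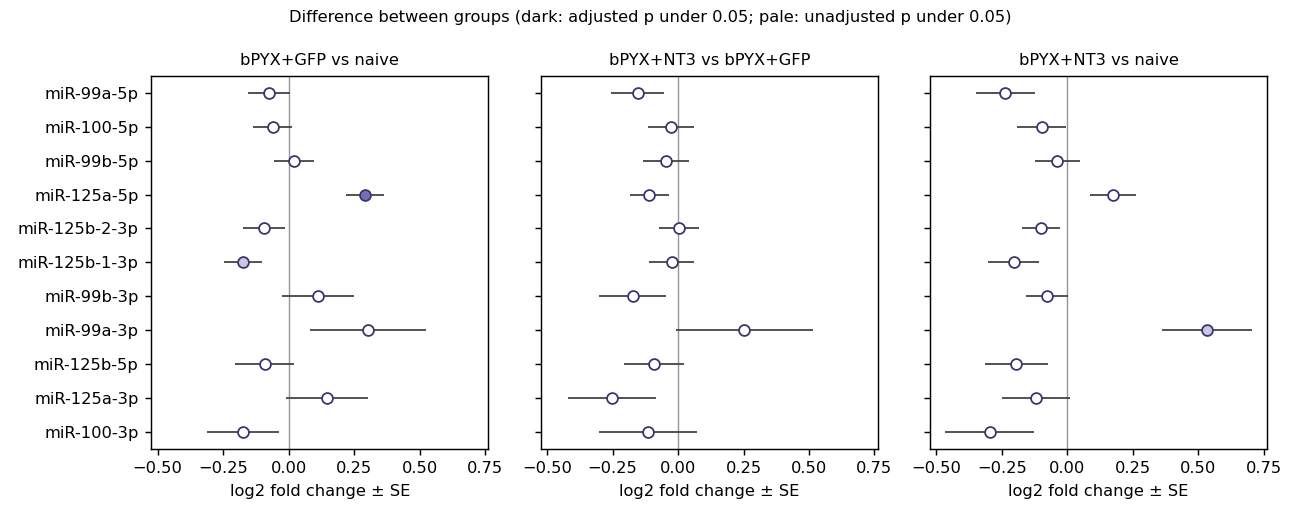
Log2 fold change with its standard error (x axis) of each member in the 3 comparisons, ordered by level. The filled dark point is miR-125a-5p between bPYX+GFP and naive at 0.29, pale points had an unadjusted p under 0.05 without passing adjustment, and open points had neither.

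The neighbouring guide was then set beside miR-125a-5p. miR-99b-5p, whose hairpin gene lies beside that of miR-125a, averaged 12199 CPM without injury and 12372 CPM with injury and the GFP vector. The ratio of miR-99b-5p to miR-125a-5p needs no scaling between libraries. Its geometric mean was 1.15 in naive and 0.945 in bPYX+GFP rats, and all 6 bPYX+GFP libraries lay below the naive mean. The difference in log2 ratio was -0.28, with an exact permutation p of 0.0303 (two-sided) and an adjusted p of 0.364 over the 24 ratio tests, so it did not pass correction. Across its alternatives the exact permutation p of this ratio ran from 0.0195 to 0.0671.

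**Figure D3:**
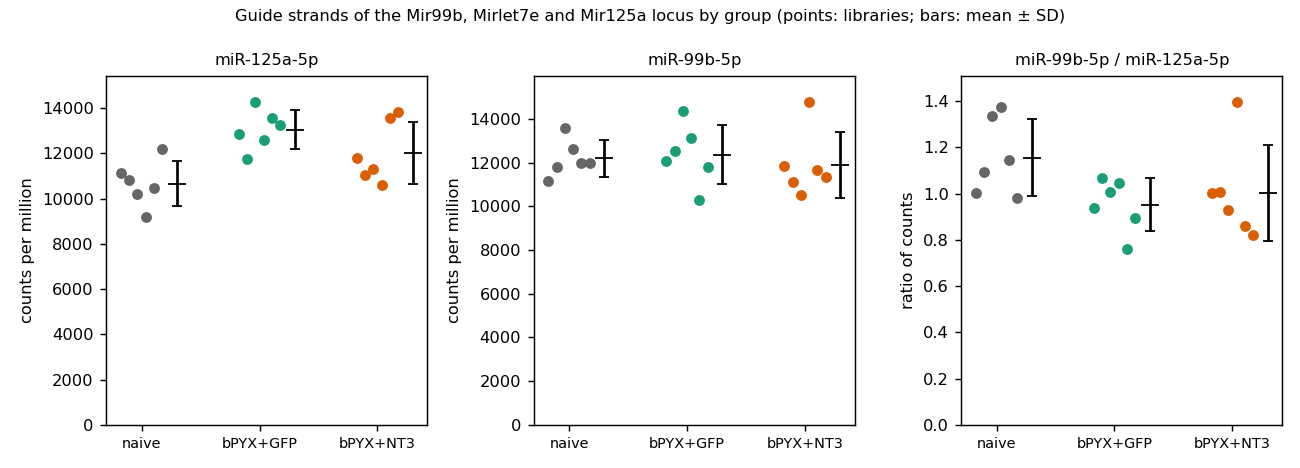
CPM of miR-125a-5p (left), CPM of miR-99b-5p (middle) and the ratio of their counts (right) by group, with 1 point per library and bars for the mean ± SD. For miR-125a-5p, 5 of 6 bPYX+GFP libraries lie above the highest naive library at 12189 CPM, whereas the miR-99b-5p groups overlap.

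The vectors were compared within injured animals, bPYX+NT3 against bPYX+GFP, to ask what the neurotrophin-3 transgene changed. No difference in a member was detected. By edgeR's quasi-likelihood test, 0 of the 11 had an adjusted p under 0.05 and 0 had an unadjusted p under 0.05. Among all 373 miRNAs the shares were 0.0% with adjustment and 8.58% without, and groups that did not overlap were found for 0.0%. The smallest unadjusted p of a member was 0.149, for miR-99a-5p, which stood at 189031 ± 33385 CPM in bPYX+NT3 rats (SD, n = 6) and had a log2 fold change of -0.15 ± 0.10 (SE). For miR-125a-5p the values were 10587, 11554 and 13814 CPM (lowest, median, highest) in bPYX+NT3 rats, with a log2 fold change of -0.11 ± 0.07 (SE) and an unadjusted p of 0.163. The bPYX+NT3 libraries spread over both other groups, and 3 of 6 lay below the lowest bPYX+GFP library. The median log2 fold change of the members was -0.09, beside -0.00042 over all 373, and 9 of 11 lay below 0.

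Set against naive rats, the bPYX+NT3 group was judged on the same naive libraries as in the first comparison and on the same bPYX+NT3 libraries as in the second. By edgeR, 0 of 11 members had an adjusted p under 0.05 and 1 had an unadjusted p under 0.05, where the shares of all tested miRNAs were 0.0% and 13.7%. No member had groups that did not overlap, against 1.34% of all tested. The member past the unadjusted threshold was the passenger strand miR-99a-3p. Naive rats had 35.2, 36.1 and 42.1 CPM (lowest, median, highest), bPYX+GFP rats 34.3, 35.9 and 93.4 CPM, and bPYX+NT3 rats 37.9, 45.6 and 84.1 CPM. All 6 bPYX+NT3 libraries lay above the naive mean and 5 above the highest naive library. The log2 fold change of miR-99a-3p was 0.53 ± 0.17 (SE), with an unadjusted p of 0.00724 and an adjusted p of 0.191.

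The level of this strand stood apart in 3 libraries. miR-99a-3p had 93.4 CPM in bPYX+GFP replicate 3, 84.1 CPM in bPYX+NT3 replicate 5 and 65.3 CPM in bPYX+NT3 replicate 3, while the other 15 libraries lay between 34.3 and 48.1 CPM. Among tested miRNAs, miR-146a-5p, miR-26b-5p and miR-540-5p had the same 3 highest libraries as miR-99a-3p, so this was not particular to it. Without bPYX+NT3 replicates 3 and 5, a setting chosen after the values were seen, its log2 fold change from naive was 0.20 with an unadjusted p of 0.0852. Without bPYX+GFP replicate 3, its log2 fold change between bPYX+NT3 and bPYX+GFP went from 0.25 to 0.58, with an unadjusted p of 0.00814 and an adjusted p of 0.350 by edgeR. Without all 3 libraries that fold change was 0.25, with an unadjusted p of 0.0306 and an adjusted p of 0.877.

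The guide from the same hairpin was lowest in bPYX+NT3 replicates 3 and 5. miR-99a-5p had 134933 CPM in bPYX+NT3 replicate 3 and 163562 CPM in bPYX+NT3 replicate 5, while the other 16 libraries lay between 189044 and 244184 CPM. Against naive rats its log2 fold change was -0.24 ± 0.11 (SE), with an unadjusted p of 0.0505 and all 6 bPYX+NT3 libraries below the naive mean. Over 23 alternative settings its unadjusted p by edgeR or DESeq2 ran from 0.0207 to 0.228 and was under 0.05 in 13. The adjusted p was 0.175 or above in all of them. Among these settings, without bPYX+NT3 replicates 3 and 5 the log2 fold change was -0.10 with an unadjusted p of 0.228. The summed level of the 3 listed markers of Schwann cells and satellite glia was also lowest of all 18 in these replicates, at 5428 CPM in replicate 3 and 6162 CPM in replicate 5. That sum ranged from 7070 to 12154 CPM among naive rats, from 7504 to 9798 CPM with the GFP vector and from 5428 to 10772 CPM with the neurotrophin-3 vector, and of the 3 markers miR-338-3p was at 0. In bPYX+NT3 replicate 3 other lists were low as well. The summed neuron markers (5098 CPM) and endothelial markers (19521 CPM) were also the lowest of 18 there. The sensory neuron markers ranked 16 of 18 from the highest, and the leukocyte markers ranked 2 of 18. In bPYX+NT3 replicate 5 the ranks were 15 for neuron, 14 for endothelial, 7 for sensory neuron and 10 for leukocyte markers. Those of smooth muscle and fibroblasts ranked 5 there and those of red blood cells 16. The neuron sum rested almost wholly on miR-128-3p, as miR-124-3p had at most 7 counts and miR-9a-5p at most 1. With miR-126a-5p at 0, the endothelial sum was miR-126a-3p alone. The part of these cell types in the miR-99a values was not tested.

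The ratio of the miR-99a strands summarises both. Its geometric mean was 6012 for naive rats, 5005 for bPYX+GFP rats and 3633 for bPYX+NT3 rats. Between bPYX+NT3 and naive rats the log2 ratio differed by -0.73, with all 6 bPYX+NT3 libraries below the naive mean, an exact permutation p of 0.00866 (two-sided) and an adjusted p of 0.208 over 24 tests. Without bPYX+NT3 replicates 3 and 5 the difference was -0.30, with an exact permutation p of 0.0286 and an adjusted p of 0.364. None of the 24 ratio tests passed correction.

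**Figure D4:**
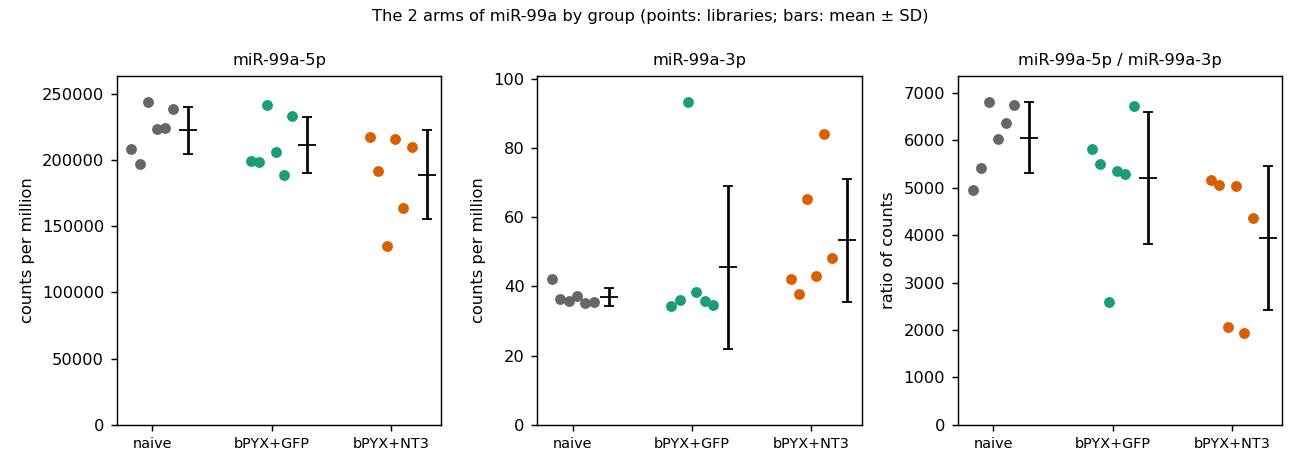
CPM of miR-99a-5p (left), CPM of miR-99a-3p (middle) and the ratio of their counts (right) by group, with 1 point per library and bars for the arithmetic mean ± SD. The 2 lowest miR-99a-5p points, at 134933 and 163562 CPM, belong to bPYX+NT3 libraries that also have high miR-99a-3p, whereas the highest miR-99a-3p point, at 93.4 CPM, is a bPYX+GFP library with high miR-99a-5p.

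The remaining members did not pass the unadjusted threshold. The passenger strand miR-100-3p, on 16 to 56 counts per library, had a log2 fold change of -0.30 ± 0.17 (SE) and an unadjusted p of 0.0995, with 5 of 6 libraries below the naive mean and 4 below the lowest naive library. miR-125b-1-3p had 231, 310 and 333 CPM (lowest, median, highest) in bPYX+NT3 rats, all 6 libraries below the naive mean, with a log2 fold change of -0.20 ± 0.10 (SE) and an unadjusted p of 0.0531. miR-125a-5p had a log2 fold change of 0.17 ± 0.09 (SE) and an unadjusted p of 0.0687, with 5 of 6 libraries above the naive mean. The median log2 fold change of the 11 members was -0.10, beside -0.01 over all 373, and 9 of 11 lay below 0.

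The let-7 strands encoded between these hairpins, and the miR-10 and miR-351 strands that resemble the guides in sequence, were read beside the members. Of these 12 miRNAs 9 were tested, and none had an unadjusted p under 0.05 in any comparison by edgeR. Their smallest unadjusted p was 0.0749 between bPYX+GFP and naive, 0.0755 between bPYX+NT3 and bPYX+GFP and 0.0618 between bPYX+NT3 and naive. The sequences of let-7a-5p and let-7c-5p each occur in 2 genes, so their counts cannot be assigned to these genes alone. let-7e-5p, from between miR-99b and miR-125a, was listed at 0 in every library. It is overlapped on the opposite strand by miR-3596c, so its 0 does not show that it was absent. miR-351-5p, which has the miR-125 seed, was listed at 0 as well.

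Members of shared genes or hairpins were then compared library by library, as log2 CPM with each group's mean removed. Of 9 pairs, 3 had a Pearson r with an adjusted p under 0.05, by permutation within groups, and none had such a Spearman rho. All 3 calls were lost when CPM used library size only, without TMM scaling. All values of a library share its total, and miR-99a-5p is itself a large part of it. miR-99a-5p and miR-125b-2-3p, from 1 group of genes, had r = 0.674 (permutation p = 0.00117, adjusted p = 0.00886) and rho = 0.616 (permutation p = 0.0102, adjusted p = 0.0919) over 18 libraries. Without the 2 libraries farthest from the median of miR-99a-5p, r was 0.704, and with library size only it was 0.361 (permutation p = 0.224, adjusted p = 0.430). The strands of miR-99b had r = 0.665 (permutation p = 0.00197, adjusted p = 0.00886) and rho = 0.449 (permutation p = 0.0642, adjusted p = 0.148). Without the 2 farthest libraries r was 0.599 and rho 0.224, and with library size only r was 0.386 (permutation p = 0.145, adjusted p = 0.430). The guides miR-99a-5p and miR-100-5p, from different groups of genes, had r = 0.683 (permutation p = 0.011, adjusted p = 0.033) and rho = 0.562 (permutation p = 0.0279, adjusted p = 0.126), with r = 0.595 without the 2 farthest. With library size only, r was 0.273 (permutation p = 0.401, adjusted p = 0.601).

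For the neighbouring guides miR-99b-5p and miR-125a-5p the relation depended on the scaling. Their r was -0.267 (permutation p = 0.334, adjusted p = 0.429) and their rho -0.319 (permutation p = 0.219, adjusted p = 0.328), with r = -0.276 without the 2 farthest. With library size only it was the 1 pair called, at r = -0.698 (permutation p = 0.00403, adjusted p = 0.0363). For miR-100-5p and miR-125b-1-3p r was 0.544 (permutation p = 0.0628, adjusted p = 0.141) and fell to 0.184 without the 2 farthest libraries. With library size only it was 0.177 (permutation p = 0.524, adjusted p = 0.657). With group means left in it was 0.594 (permutation p = 0.0306, adjusted p = 0.0688). What relation there was thus depended on those libraries and on the scaling. The strands of miR-99a, miR-100 and miR-125a had r = -0.172, -0.341 and -0.000338 (adjusted p = 0.609, 0.429 and 0.999 by permutation), and miR-99a-5p and let-7c-5p had r = 0.223 (adjusted p = 0.429 by permutation), where let-7c-5p counts can come from either of its 2 genes.

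**Figure D5:**
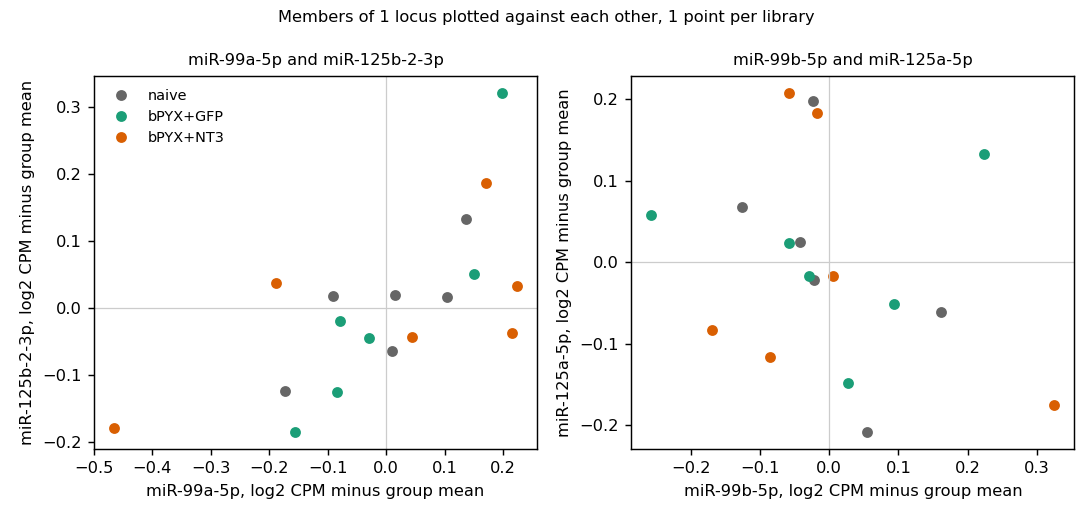
Log2 CPM minus the group mean, with 1 point per library coloured by group, for miR-99a-5p against miR-125b-2-3p (left, r = 0.674) and miR-99b-5p against miR-125a-5p (right, r = -0.267). The left cloud rises from lower left to upper right, and the right one has no such slope.

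The miRNAs most like each guide over the 18 libraries, by Spearman rho of log2 CPM among 372 others and with group differences left in, are given as a description. For miR-125a-5p they were miR-496-3p (rho 0.905), miR-433-3p (0.792) and miR-194-5p (0.761). For miR-99a-5p they were miR-676 (0.792), the member miR-125b-2-3p (0.773) and miR-1298 (0.754). For miR-100-5p they were miR-134-5p (0.843), the member miR-99b-5p (0.804) and miR-379-5p (0.756), and for miR-99b-5p miR-211-5p (0.878), miR-674-3p (0.853) and miR-10b-5p (0.837). Neither miR-99b-5p nor miR-125a-5p was among the 3 most like the other.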

How the data were processed

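Small RNA of C6 to C8 dorsal root ganglia was measured in 18 rats, 6 per group. Per the labels and the study's methods, reads were demultiplexed with bcl2fastq 1.8.4, trimmed of adapters, aligned with Bowtie2 to Rnor_5.0 and counted per miRNA with HTSeq, and the authors deposited these raw counts in 1 table. Entries that name no miRNA (too low alignment quality, not aligned, no feature, ambiguous) were left out of library sizes. From the counts, miRNAs were kept where 6 or more of the 18 libraries exceeded 10 counts, and were tested pairwise with edgeR 4.0.16 (R 4.3.3; TMM scaling, quasi-likelihood F test, 2 groups per fit, no covariate), with Benjamini-Hochberg adjustment over 373 miRNAs. CPM used TMM factors over all 18 libraries. Ratios of counts within a library were compared by two-sided exact permutation tests over all splits of 6 against 6 libraries. Correlations used 100000 resamples within groups. The scripts were tested on simulated data. Alternatives included other scalings, filters and tests (DESeq2 1.42.0), a replicate block and leaving out each library.

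Members and neighbour, relative and marker lists were chosen with earlier results of these data known. Named were all members and the fixed lists, and for each abundant guide the 3 miRNAs most like it. Tested miRNAs with the same 3 highest libraries as miR-99a-3p were named as well. Sequences are from RefSeq (GRCr8). Replicates are separate rats. Counts carry no molecular identifiers. The smallest exact p possible was 0.00216.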

Additional observations from a re-analysis of the deposited data

Results flagged for a closer look

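Of 60 groups of 6 libraries, over 20 measures, 9 held a library whose gap to its nearest neighbour was above the 95% limit of Dixon's test for 6 values, where chance gives about 1 in 20 groups. The ratios share counts with the CPM measures, so the 20 measures are not independent and 1 odd value can be flagged more than once. In bPYX+GFP replicate 3, 4 measures stood apart. There miR-99a-3p was at 93.4 CPM (next 38.5), miR-99b-3p at 424 CPM (next 264), miR-125a-3p at 26.3 CPM (next 17.0), and the ratio of miR-99a-5p to miR-99a-3p counts at 2586 (next 5285). Without that library the log2 fold changes of miR-99a-3p, miR-99b-3p and miR-125a-3p between bPYX+GFP and naive turned to -0.04, -0.05 and -0.02.

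In bPYX+NT3 replicate 4, miR-99b-5p was at 14797 CPM (next 11855) and the ratio of miR-99b-5p to miR-125a-5p counts at 1.40 (next 1.01). The ratio of miR-100-5p to miR-100-3p counts was 14442 there (next 7386), on 16 counts of miR-100-3p. In naive replicate 1, miR-99a-3p was at 42.1 CPM (next 37.1), and in naive replicate 3, miR-99b-3p was at 296 CPM (next 253).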

How the results depend on the processing

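Between bPYX+GFP and naive, 1 member had an adjusted p under 0.05. The count was 0 with library sizes of miRNAs outside the 2 families (adjusted p of miR-125a-5p 0.0701), with no filter (0.0689), with 3 groups fitted together (0.0578) and with the replicate block (0.0682), and 0 to 1 with single libraries left out. The count with an unadjusted p under 0.05 was 2, and 1 with library size only, library sizes outside the families, the likelihood ratio test or 3 groups together, and 1 to 2 with single libraries left out. Between bPYX+NT3 and bPYX+GFP it was 0, then 0 to 1 with single libraries left out and 1 without bPYX+NT3 replicates 3 and 5 and bPYX+GFP replicate 3. For bPYX+NT3 and naive it was 1. There it was 2 with median-of-ratios factors, library size only, library sizes outside the families, the likelihood ratio test or the replicate block, 3 with no filter or a filter above 100 counts, 4 with DESeq2 or 3 groups together, 0 without bPYX+NT3 replicates 3 and 5, and 1 to 4 with single libraries left out. Pairs with an adjusted p under 0.05 for r numbered 3. With library size only all 3 were lost and 1 other, miR-99b-5p and miR-125a-5p (r = -0.698), was called. Replicate numbers did not pair the rats.

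Sign changes followed, all of values that had not passed a threshold. Between bPYX+NT3 and bPYX+GFP, log2 fold changes turned for miR-125b-1-3p (0.0014 with library size only), for miR-125b-2-3p (-0.0047 with median-of-ratios factors, -0.014 with no filter, -0.0048 with DESeq2, -0.0075 with 3 groups together, -0.0013 without bPYX+NT3 replicates 3 and 5) and, without those replicates, for miR-99a-3p (-0.12, from 0.25) and miR-125b-1-3p (0.028). Without bPYX+GFP replicate 3 as well they turned for miR-100-5p (0.048), miR-125b-1-3p (0.046), miR-99a-5p (0.017) and miR-99b-5p (0.032). Between bPYX+NT3 and naive, miR-99b-5p turned with library size only (0.021) and without bPYX+NT3 replicates 3 and 5 (0.0058). By medians, log2 ratios turned for miR-99a-5p/miR-100-5p (0.0073, bPYX+GFP and naive), and between bPYX+NT3 and bPYX+GFP for miR-99b-5p/miR-99b-3p (-0.034), miR-100-5p/miR-100-3p (-0.12) and miR-99b-5p/miR-125a-5p (-0.0064), and for miR-99b-5p/miR-99b-3p between bPYX+NT3 and naive (-0.037). miR-125b-1-3p/miR-125b-2-3p turned to 0.023 without bPYX+NT3 replicates 3 and 5. The r of miR-99a-5p and let-7c-5p was -0.062 with library size only, that of the miR-125a strands 0.101 without centring and that of the miR-99a strands 0.185 without the 2 farthest libraries.

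With single libraries left out, signs turned within these ranges. Between bPYX+GFP and naive they were -0.023 to 0.19 for miR-125a-3p, -0.038 to 0.37 for miR-99a-3p (0.30 with all libraries), -0.053 to 0.16 for miR-99b-3p, -0.023 to 0.054 for miR-99b-5p, -0.052 to 0.027 for miR-99a-5p/miR-100-5p and -0.11 to 0.028 for miR-99b-5p/miR-99b-3p. Those for bPYX+NT3 and bPYX+GFP were -0.098 to 0.0027 for miR-100-5p, -0.073 to 0.015 for miR-125b-1-3p, -0.037 to 0.061 for miR-125b-2-3p (0.090 without all 3 libraries named above, with no change of sign), -0.20 to -0.10 for miR-99a-5p (same sign throughout), -0.095 to 0.20 for miR-100-5p/miR-100-3p, -0.10 to 0.012 for miR-125b-1-3p/miR-125b-2-3p and -0.036 to 0.12 for miR-99b-5p/miR-125a-5p. Those for bPYX+NT3 and naive were -0.090 to 0.0033 for miR-99b-5p and -0.0095 to 0.053 for miR-99b-5p/miR-99b-3p. The cause was not tested.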
